A study of Homo sapiens with 9 samples.

Results

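The genes NANOG, UTF1, SALL2, SALL4, LIN28A, LIN28B, DPPA4, ZIC2 and PRDM14 are used to recognise human pluripotent cells, either in every pluripotent state or in the primed state that resembles the epiblast after implantation. These 9 genes, each found as 1 row among the 36601 genes of both libraries, were followed through human extra-embryoids (hEEs). hEEs are aggregates of human pluripotent stem cells that form an inner epiblast-like compartment and an outer hypoblast-like layer. They were grown from wild-type ESI017 cells, a human embryonic stem cell line. The line was kept on mouse feeder cells in human expanded potential (hEP) medium with added WNT and ROCK inhibitors. The paper's protocol gives the aggregates a ROCK inhibitor on the first day and later a change of medium. It names no other treatment for the sequenced hEEs, which were picked under brightfield for showing both compartments. Droplet sequencing of single cells from transcript 3′ ends gave 1 library for D4 and 1 for D6. Each library pooled aggregates of several wells and independent experiments, so there was no replicate of a day and no test between populations could be run.

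Cells were sorted into populations by the unique molecular identifiers (UMIs, counted RNA molecules) of 5 other genes. The embryonic gate took cells with at least 5 UMIs of POU5F1, at least 1 of SOX2 and at most 2 of FN1, and held 3716 of 9151 kept cells at D4 and 5054 of 10097 at D6. Within this gate, cells with at least 2 UMIs of TFAP2A, a factor of amnion and surface ectoderm, are called TFAP2A cells (81 at D4, 350 at D6). Those with at least 8 UMIs of TAGLN, an actin-binding protein, are called TAGLN cells (465 at D4, 115 at D6), with 2 cells per day in both sets. The remaining 3172 and 4591 cells are the base embryonic cells. The hypoblast gate took cells with at least 3 UMIs of FN1, none of SOX2 and at most 5 of POU5F1, which left 4061 cells at D4 and 3567 at D6. Another 1374 kept cells at D4 and 1476 at D6 lay in neither gate and are in none of the comparisons of populations. Because POU5F1, SOX2, FN1, TFAP2A and TAGLN chose the cells, their levels are a description only. POU5F1 stood at 1171 CPM (UMIs of a gene among 1000000 UMIs of its population) in the embryonic gate at D4 and at 76.6 in the hypoblast gate, and FN1 at 19.2 and 927.

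NANOG, PRDM14 and SALL4 are transcription factors of the pluripotency network, in which they act beside POU5F1 and SOX2. UTF1 and DPPA4 are chromatin-associated proteins whose genes are switched off when pluripotent cells differentiate. SALL2 is a zinc finger factor of the same family as SALL4, and ZIC2 is a zinc finger factor that is active at enhancers of primed cells and later in neural tissue. LIN28A and LIN28B bind RNA and block the maturation of let-7 microRNAs. SALL4 is also known from early endoderm lineages, and LIN28 proteins from many early embryonic tissues.

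Entries of the RefSeq promoter table for GRCh38.p14 were read for 6 of the 9 genes (NANOG, UTF1, DPPA4, SALL2, ZIC2 and LIN28B, the last with 2). The 250 bases before the annotated start are printed for NANOG, UTF1, DPPA4 and SALL2, 4 of the 5 genes more than 2-fold higher in the embryonic gate (no sequence is shown for PRDM14), and for ZIC2, whose ratio changed sign between the days. They lie on GRCh38.p14 at chr12:7789152-7789401 (NANOG, plus strand), chr10:133229967-133230216 (UTF1, plus strand), chr3:109337547-109337796 (DPPA4, minus strand), chr14:21537122-21537371 (SALL2, minus strand) and chr13:99981534-99981783 (ZIC2, plus strand). The DPPA4 window lies inside the annotated gene, before the start that the table uses, and the other 4 lie next to the gene's outer end. Of the genes not printed, SALL4 lies at chr20:51782331-51802521, LIN28A at chr1:26410817-26429728 and LIN28B at chr6:104937026-105083332. Capitals mark matches on either strand to 6 short motifs. These were the octamer ATGCAAAT and its core ATGCAAA, the SOX motif ACAATG, the GC box GGGCGG, the CCAAT box CCAAT and the TATA box TATAAA. The core lies inside the octamer, so a match to the octamer is also a match to the core.
NANOG: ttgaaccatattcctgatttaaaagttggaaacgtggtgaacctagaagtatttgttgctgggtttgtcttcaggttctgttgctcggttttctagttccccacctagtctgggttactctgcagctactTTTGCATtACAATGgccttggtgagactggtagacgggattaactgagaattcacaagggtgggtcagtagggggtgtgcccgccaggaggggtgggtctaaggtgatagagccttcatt
UTF1: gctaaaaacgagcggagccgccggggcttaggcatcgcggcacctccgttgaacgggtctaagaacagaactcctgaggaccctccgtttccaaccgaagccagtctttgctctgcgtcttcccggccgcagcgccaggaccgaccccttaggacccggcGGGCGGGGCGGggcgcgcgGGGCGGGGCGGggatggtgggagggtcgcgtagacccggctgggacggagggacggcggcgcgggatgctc
DPPA4: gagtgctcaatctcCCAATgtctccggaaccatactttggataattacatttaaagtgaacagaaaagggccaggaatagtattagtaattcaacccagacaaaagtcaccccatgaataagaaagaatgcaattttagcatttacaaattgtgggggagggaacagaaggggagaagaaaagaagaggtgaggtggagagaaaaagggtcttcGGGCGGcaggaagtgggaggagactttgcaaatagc
SALL2: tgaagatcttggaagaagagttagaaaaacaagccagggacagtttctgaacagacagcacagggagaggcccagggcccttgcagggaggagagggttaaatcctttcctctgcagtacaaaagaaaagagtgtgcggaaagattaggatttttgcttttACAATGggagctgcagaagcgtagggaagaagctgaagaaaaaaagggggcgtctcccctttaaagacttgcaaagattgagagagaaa
ZIC2: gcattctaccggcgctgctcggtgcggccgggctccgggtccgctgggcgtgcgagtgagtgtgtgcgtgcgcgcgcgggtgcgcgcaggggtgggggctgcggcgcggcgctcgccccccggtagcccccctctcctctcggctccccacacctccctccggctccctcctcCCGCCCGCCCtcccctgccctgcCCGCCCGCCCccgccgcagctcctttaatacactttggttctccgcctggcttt
Only the NANOG window held the octamer core, on the minus strand from position -120, with the SOX motif 1 base further on from position -112. The SALL2 window held the SOX motif from position -89. The windows of UTF1 and ZIC2 held 4 copies of the GC box each and had GC contents of 70.8% and 75.6%. The GC contents of the other windows were 47.6% (NANOG), 46.0% (SALL2) and 43.2% (DPPA4). DPPA4 had 1 GC box and 1 CCAAT box. Of 35116 windows of the same length, 3.94% held the octamer core, 9.29% the SOX motif, 42.6% the GC box and 32.0% the CCAAT box, with 1.63% for the full octamer and 10.7% for the TATA box, neither of which was found in the printed windows. These matches describe letters and were not read as binding sites.

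The median depth was 15158 UMIs per cell in the embryonic gate and 11012 in the hypoblast gate at D4, and 14226 and 10902 at D6. TAGLN cells were deeper, at 17911 and 17129. Levels are therefore given in CPM, and shares of cells also after thinning each cell at random to the lowest UMI total allowed in kept cells. Intervals in square brackets are 95% and cover counting error only, and UMIs of 1 library are not independent of its preparation. The median mitochondrial share of embryonic cells was 3.82% at D4 and 1.93% at D6. Of 40 cell barcodes present in both libraries, 27 were kept in both. Scrublet called 1.51% and 1.68% of embryonic cells doublets, but 8.70% of TAGLN cells at D6, and doublets were left out only in an alternative. Of 9 hypoblast markers 8 were at least 2-fold lower in the embryonic gate at D4 and 9 at D6, while 5 of 7 embryonic markers were at least 2-fold higher on each day. The embryonic markers TDGF1 and PODXL were not (log2 ratios of -0.30 and -1.04 at D4).

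The first comparison asks which of the 9 genes separate the embryonic from the hypoblast gate. NANOG, UTF1, SALL2, DPPA4 and PRDM14 were more than 2-fold higher in the embryonic gate on both days, and SALL4, LIN28A, LIN28B and ZIC2 were not. None was 2-fold lower. With 1 library per day, a gene is called when its ratio passes 2-fold, among genes with an expected count of at least 20 in the smaller population, and the 9 genes met this minimum in every comparison. Of 16217 genes at D4, 13.4% were called higher and 13.1% lower, and of 16196 genes at D6, 18.1% were called higher and 13.3% lower. The share of 5 in 9 was thus above the background on the higher side, for genes that had been picked as pluripotency genes. The median log2 ratio was 1.60 for the 9 genes against 0.04 for all genes at D4, and 2.01 against 0.13 at D6. The plot of embryonic over hypoblast ratios shows the genes in 2 sets, with a gap between LIN28B and SALL2.

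**Figure D1:**
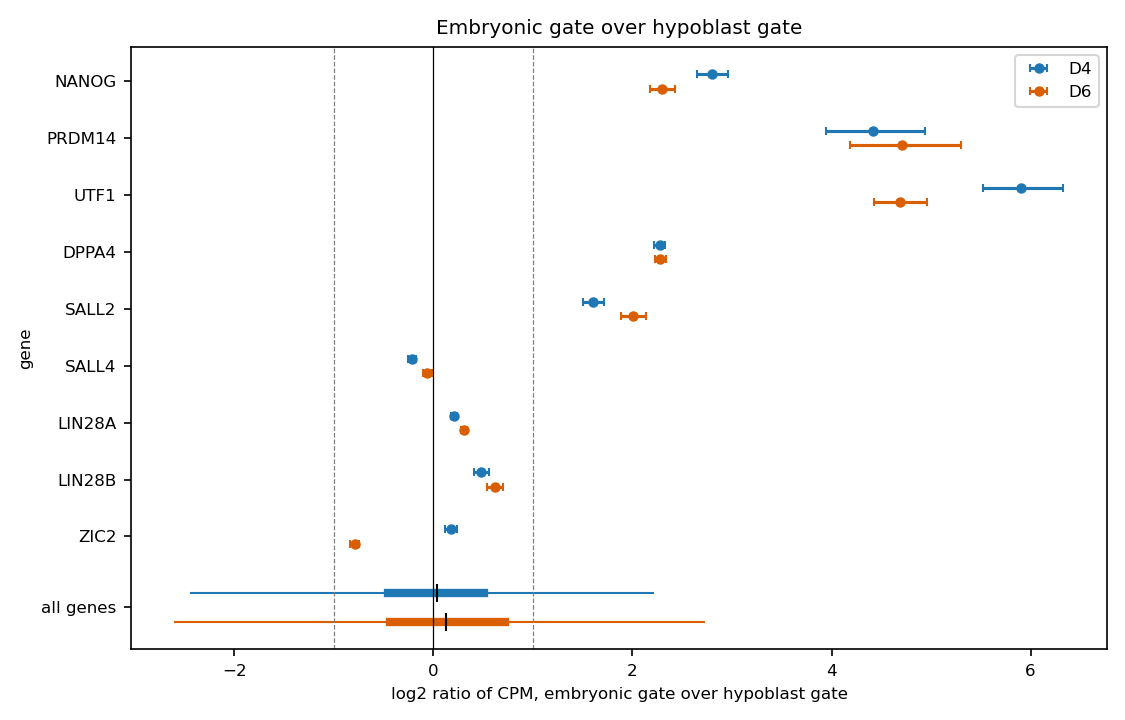
Log2 ratio of CPM, embryonic gate over hypoblast gate (x axis), for each of the 9 genes (y axis) at D4 (blue) and D6 (orange), with 95% counting intervals; dashed lines mark 2-fold. The bottom bars give all genes (thin line from the 5th to the 95th percentile, thick line the quartiles, tick the median). UTF1 and PRDM14 lie beyond 4, NANOG, DPPA4 and SALL2 between 1.60 and 2.80, the LIN28 genes and SALL4 within 2-fold, and ZIC2 moves from 0.17 at D4 to -0.79 at D6.

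NANOG stood at 53.9 CPM [52.0, 55.8] in the embryonic gate at D4 and at 7.71 [6.95, 8.54] in the hypoblast gate. At D6 the levels were 63.8 [62.0, 65.6] and 13.0 [11.9, 14.1]. The log2 ratio was 2.80 [2.65, 2.96] at D4 and 2.30 [2.17, 2.43] at D6, since the level at D6 was 1.68-fold that at D4 in the hypoblast gate and 1.18-fold in the embryonic gate. At equal depth 16.5% of embryonic and 2.86% of hypoblast cells had a NANOG UMI at D4, and 18.9% and 3.81% did at D6, against 51.3%, 7.76%, 56.8% and 11.5% without thinning.

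PRDM14, a repressor of differentiation genes, was low everywhere. It stood at 16.6 CPM [15.5, 17.6] in the embryonic gate and 0.774 [0.545, 1.07] in the hypoblast gate at D4, and at 18.2 [17.2, 19.2] and 0.694 [0.465, 0.997] at D6. Its hypoblast levels rest on 37 and 29 UMIs. The log2 ratios were 4.42 [3.95, 4.94] and 4.71 [4.18, 5.30].

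UTF1 had the largest ratio of the 9 genes at D4. It stood at 67.7 CPM [65.6, 69.9] in the embryonic gate and 1.13 [0.848, 1.47] in the hypoblast gate at D4, and at 75.3 [73.4, 77.3] and 2.92 [2.43, 3.49] at D6. The log2 ratio was 5.91 [5.52, 6.32] at D4 and 4.69 [4.43, 4.96] at D6. A UTF1 UMI was seen in 55.0% of embryonic and 1.31% of hypoblast cells at D4, and in 20.02% and 0.443% after thinning.

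DPPA4 was found in nearly every embryonic cell, with a UMI in 97.6% at D4 and 98.7% at D6, against 51.7% and 57.7% in the hypoblast gate. After thinning these shares were 65.2%, 72.2%, 19.5% and 23.1%. Its level was 318 CPM [313, 322] in the embryonic gate and 65.6 [63.3, 67.9] in the hypoblast gate at D4, and 385 [381, 390] and 79.4 [76.7, 82.1] at D6. The log2 ratio was 2.28 on both days, because the level was 1.21-fold higher at D6 in each gate. SALL2 stood at 61.8 [59.7, 63.8] and 20.3 [19.04, 21.62] at D4, and at 55.5 [53.8, 57.2] and 13.8 [12.7, 15.0] at D6. Its log2 ratio went from 1.60 at D4 to 2.01 [1.88, 2.14] at D6.

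SALL4, unlike SALL2, was not lower in the hypoblast gate. Its levels were 155 CPM [151, 158] in the embryonic and 179 [176, 183] in the hypoblast gate at D4, and 146 [143, 149] and 152 [149, 156] at D6. LIN28A was nearly level between the gates, at 361 [356, 366] and 313 [308, 318] at D4 and at 338 [334, 342] and 273 [268, 278] at D6. After thinning, 68.7% of embryonic and 63.4% of hypoblast cells had a LIN28A UMI at D4. LIN28B, its paralog, stood at 60.4 [58.5, 62.5] and 43.3 [41.4, 45.2] at D4 and at 59.5 [57.7, 61.3] and 38.7 [36.9, 40.7] at D6. The log2 ratios of LIN28A were 0.21 and 0.31 and those of LIN28B 0.48 and 0.62. The median of all genes at D6 was itself 0.13. With that taken off, SALL4 stood at -0.19, LIN28A at 0.18, LIN28B at 0.49 and ZIC2 at -0.92.

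ZIC2 was the 1 gene of the 9 whose ratio between the gates changed sign between the days, without passing 2-fold on either. The levels were 96.0 CPM [93.5, 98.5] in the embryonic and 85.1 [82.5, 87.7] in the hypoblast gate at D4. At D6 they were 99.7 [97.4, 102] and 172 [168, 176]. The log2 ratio was 0.17 [0.11, 0.23] at D4 and -0.79 [-0.84, -0.74] at D6. At equal depth, 26.2% of embryonic and 23.9% of hypoblast cells had a ZIC2 UMI at D4, and 26.8% and 41.1% did at D6.

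RNA free in the suspension can give UMIs in cells that do not express a gene, and its part in the hypoblast levels was not tested. Among 5942 genes at 20 CPM or more in the embryonic gate at D4, the gate's own genes left out, the lowest hypoblast level was 1.14% of the embryonic one (LINC00678), and at D6 it was 1.07% among 6042 genes (AC009446.1). UTF1 in the hypoblast gate stood at 1.67% [1.25, 2.18] of its embryonic level at D4 and 3.88% [3.21, 4.64] at D6. PRDM14 stood at 4.67% [3.27, 6.49] and 3.81% [2.54, 5.50]. NANOG stood at 14.3% and 20.3%, DPPA4 at 20.6% on both days, and SALL2 at 32.9% and 24.8%. Of the 5 genes, UTF1 at D4 came nearest to the lowest ratio.

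The next comparison asks how the genes changed from D4 to D6 in each gate. In the embryonic gate none of the 9 genes changed by 1.5-fold. The log2 ratios ran from -0.15 [-0.22, -0.09] for SALL2 to 0.28 [0.25, 0.30] for DPPA4, with NANOG at 0.24 [0.18, 0.31], UTF1 at 0.15, PRDM14 at 0.14, ZIC2 at 0.05, LIN28B at -0.02, SALL4 at -0.08 and LIN28A at -0.09. Of 16689 genes, 8.77% were past 1.5-fold higher and 2.70% past 1.5-fold lower, and the median was 0.08.

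In the hypoblast gate 3 of the 9 genes passed 1.5-fold, each higher at D6: UTF1 (log2 ratio 1.37 [0.90, 1.86]), ZIC2 (1.02 [0.96, 1.07]) and NANOG (0.75 [0.55, 0.94]). Of 15541 genes, 9.70% were past 1.5-fold higher and 8.18% lower, so the share of 3 in 9 was above the background on the higher side. SALL2 stood at -0.56 [-0.71, -0.41], just inside 1.5-fold, which it passed under stricter gates (-0.60) and in thinned cells (-0.70). SALL4, LIN28A and LIN28B stood at -0.23, -0.19 and -0.16. PRDM14 could not be placed, with an interval from -0.91 to 0.58. The UTF1 ratio rests on 54 UMIs at D4, at a level close to the lowest ratio described above, and 122 at D6. The NANOG ratio was 0.57 in thinned cells and then fell short of 1.5-fold, and it was 1.10 under stricter gates. In hypoblast gate cells with a UMI of SOX17, an endoderm factor, NANOG went from 8.02 to 12.7 CPM and ZIC2 from 89.3 to 179. In those without one, NANOG went from 7.16 to 13.5 and ZIC2 from 77.6 to 159. Both genes were thus higher at D6 in cells with and without a SOX17 UMI. A cell with no SOX17 UMI can still express the gene, so these sets do not separate cells by SOX17 expression. The summed level of 9 hypoblast markers in the gate was 8082 CPM at D4 and 22618 at D6, and that of 6 streak and mesoderm markers 161 and 280. Their part in these ratios was not tested.

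**Figure D2:**
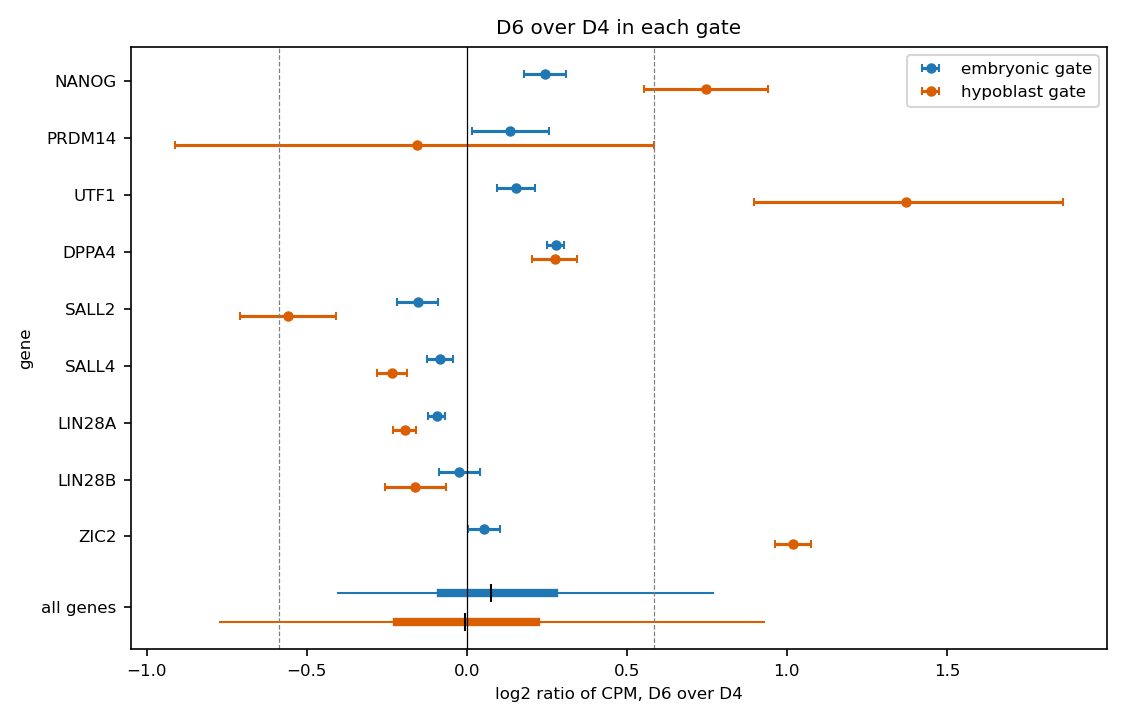
Log2 ratio of CPM, D6 over D4 (x axis), for the 9 genes (y axis) in the embryonic gate (blue) and the hypoblast gate (orange), with 95% counting intervals; dashed lines mark 1.5-fold, and the bottom bars give all genes as percentiles (5th to 95th, quartiles, median). The embryonic values lie between -0.15 and 0.28, whereas UTF1, ZIC2 and NANOG pass 1.5-fold in the hypoblast gate.

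Within the embryonic gate, TFAP2A cells were compared with base embryonic cells. PRDM14 was the gene that differed most on both days. It stood at 5.97 CPM [2.58, 11.8] in TFAP2A cells against 15.8 [14.7, 16.9] in base cells at D4, and at 9.15 [6.73, 12.2] against 18.6 [17.6, 19.7] at D6. The log2 ratios were -1.40 [-2.62, -0.42], from 8 UMIs, and -1.02 [-1.48, -0.60], from 47. In thinned cells the D4 ratio was -0.22 and fell short of 1.5-fold, but only 3 of the 81 TFAP2A cells then had a PRDM14 UMI.

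NANOG stood at 34.3 [25.1, 45.8] in TFAP2A cells against 52.4 [50.4, 54.5] in base cells at D4 (log2 ratio -0.61 [-1.06, -0.19]). At D6 the levels were 53.0 [46.9, 59.7] and 64.3 [62.5, 66.3] (-0.28 [-0.46, -0.10]). NANOG thus passed 1.5-fold at D4 only, where the mean over single cells gave -0.58 and fell just short, and the difference between the days was not tested. ZIC2 passed it at D6, with 64.5 [57.7, 71.8] against 101 [98.9, 104] (-0.65 [-0.81, -0.49]), and the ratio was -0.56 when every called cell was used, which falls short. At D4 its levels were 89.5 [74.2, 107] and 98.8 [96.1, 102] (-0.14), and with gates scaled to depth, which left 15 TFAP2A cells, the D4 ratio was -1.28 and passed 1.5-fold. Of 6949 genes at D4, 0.950% were past 1.5-fold higher and 2.49% lower, and of 11256 genes at D6, 2.24% higher and 2.46% lower. With 2 of 9 genes lower on each day and 0 higher, the share past 1.5-fold lower was above the background. The genes behind it differed, with NANOG (46 UMIs) and PRDM14 (8 UMIs) at D4 and ZIC2 and PRDM14 at D6. The background was not matched for level, and the D4 share rests on these few UMIs.

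The other 6 genes stayed within 1.5-fold. UTF1 stood at 47.8 [36.8, 61.0] against 66.3 [64.0, 68.6] at D4 and at 64.5 [57.7, 71.8] against 76.2 [74.1, 78.3] at D6. DPPA4 stood at log2 ratios of -0.14 and -0.17, and SALL2 at -0.00 and -0.07. LIN28A lay on the other side, with 433 [398, 470] against 368 [363, 374] at D4 and 404 [386, 421] against 334 [330, 338] at D6, or log2 ratios of 0.23 [0.11, 0.35] and 0.27 [0.21, 0.34]. SALL4 stood at 0.14 and 0.19 and LIN28B at 0.20 and 0.12. The gate genes POU5F1 and SOX2 lay between -0.13 and 0.05 in these cells, which the gate holds above a minimum. Cells with TFAP2A outside the embryonic gate are not in this set. At D6 the kept cells in neither gate held TFAP2A at 17.2 CPM, NANOG at 35.6 and UTF1 at 36.1, and Scrublet called 22.2% of them doublets. What leaving them out does to the ratios was not tested. The 10 amnion markers summed to 32.1 CPM in TFAP2A cells against 13.9 in base cells at D4, and to 95.1 against 23.3 at D6. Of them 5 were at 0 in TFAP2A cells at D4, with ISL1 among these, and 3 at D6. Trophoblast markers summed to 30.6 against 10.9 at D4 and 32.1 against 8.78 at D6, with 7 of 9 at 0 in TFAP2A cells on each day. Germ cell markers summed to 23.1 against 12.2 and 38.6 against 14.5, and streak and mesoderm markers to 6.72 against 8.59 and 24.2 against 9.52. KRT7 is on both the amnion and the trophoblast list. In the hypoblast gate the amnion list summed to 89.9 CPM at D4 and 121 at D6, and the trophoblast list to 223 and 226. The germ cell list summed there to 111 and 121. These sums thus identify no cell type among TFAP2A cells, and the part of the marker-carrying cells in the ratios was not tested.

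At D6 the levels of ZIC2, PRDM14 and LIN28A ran in order across the gate's limit of 2 UMIs. For these genes, only the neighbouring sets with 0 and 1 TFAP2A UMI had intervals clear of each other. Between the sets with 1 and with 4 or more, the intervals of ZIC2 and LIN28A were clear of each other and those of PRDM14 overlapped. ZIC2 stood at 104 CPM in the 4362 embryonic gate cells with no TFAP2A UMI, at 84.0 in the 342 with 1, at 69.0 in the 232 with 2 or 3 and at 56.1 in the 118 with 4 or more. PRDM14 went from 19.4 through 12.0 and 10.2 to 7.22 over the same cells, and LIN28A from 332 through 358 and 389 to 431. NANOG, UTF1 and DPPA4 also ran in order at D6. They went from 65.0, 76.2 and 390 with no TFAP2A UMI to 51.1, 64.4 and 324 with 4 or more. ZIC2 at D4 did not run in order, at 95.6, 104 and 92.4 in cells with 0, 1 and 2 or 3. At D4, the 243 cells with 1 TFAP2A UMI, just outside the limit, already had NANOG at 36.9 against 55.6 in cells with none, and PRDM14 at 7.17 against 17.5. The 72 cells with 2 or 3, just inside it, had 35.1 and 6.85. Median depths lay between 14916 and 15169 UMIs in these sets at D4 (the 9 cells with 4 or more, at 18487, left out) and between 13693 and 14349 at D6.

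In TAGLN cells none of the 9 genes passed 1.5-fold, although a larger share of all genes compared did than in TFAP2A cells. Of 12178 genes at D4, 3.20% were past it higher and 3.78% lower, and of 8456 at D6, 4.15% in each direction. PRDM14 came closest, at 22.7 CPM [19.7, 26.2] in TAGLN cells against 15.8 at D4 and 27.0 [20.2, 35.3] against 18.6 at D6. Its log2 ratios were 0.53 [0.29, 0.76] and 0.53 [0.11, 0.93], opposite in sign to those of TFAP2A cells, and in thinned cells they were 0.72 and 0.04. The thinned values rest on 29 of 465 TAGLN cells with a PRDM14 UMI at D4 and 7 of 115 at D6. NANOG stood at 65.2 [59.9, 70.8] in TAGLN cells at D4 (log2 ratio 0.32 [0.18, 0.45]) and 71.7 [60.4, 84.6] at D6 (0.16 [-0.10, 0.40]). UTF1 stood at 78.9 [73.1, 85.1] (0.25 [0.13, 0.37]) and 72.2 [60.8, 85.1] (-0.08 [-0.33, 0.16]).

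DPPA4 stood below base cells on both days, at 277 [266, 288] against 326 in base cells at D4 and 293 [270, 318] against 391 at D6 (log2 ratios -0.23 and -0.41). LIN28A stood at -0.25 and -0.10. ZIC2 lay on opposite sides, at 81.0 [75.1, 87.3] against 98.8 at D4 and 138 [122, 156] against 101 at D6, or log2 ratios of -0.29 [-0.40, -0.17] and 0.45 [0.27, 0.63]. The D6 value was 0.47 without Scrublet doublets and -0.06 in the 45 cells with at least 16 TAGLN UMIs that passed stricter gates. The 9 hypoblast markers summed to 1087 CPM in TAGLN cells against 995 in base cells at D4 and to 2154 against 1199 at D6. Their part in the ZIC2 ratio was not tested.

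Along TAGLN UMIs at D4, PRDM14 went from 12.7 CPM in cells with none through 15.6, 19.7 and 21.8 to 24.8 in the 136 cells with 20 or more. NANOG went from 45.5 through 52.4, 61.2 and 62.4 to 71.4, and DPPA4 from 334 through 323, 314 and 284 to 262. The order thus ran through cells below the limit of 8 UMIs, and the sets just outside and just inside it (3 to 7 and 8 to 19 UMIs) had overlapping NANOG and PRDM14 intervals. The DPPA4 intervals of these sets, [304, 324] and [270, 298], were clear of each other, whereas those of its other neighbouring sets overlapped. The median depth rose along the same cells, from 13455 to 19430 UMIs. Levels are divided by the UMIs of the same cells, so depth enters them through the choice of cells. At D6 DPPA4 went from 391 in cells with no TAGLN UMI to 269 in those with 20 or more, whereas PRDM14 was highest below the limit, at 36.8 with 3 to 7 UMIs, 22.2 with 8 to 19 and 33.2 with 20 or more. NANOG at D6 did not run in order along TAGLN UMIs, at 63.9 in cells with none, 56.8 in those with 3 to 7 and 78.3 [60.6, 99.7] in the 48 with 20 or more.

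**Figure D3:**
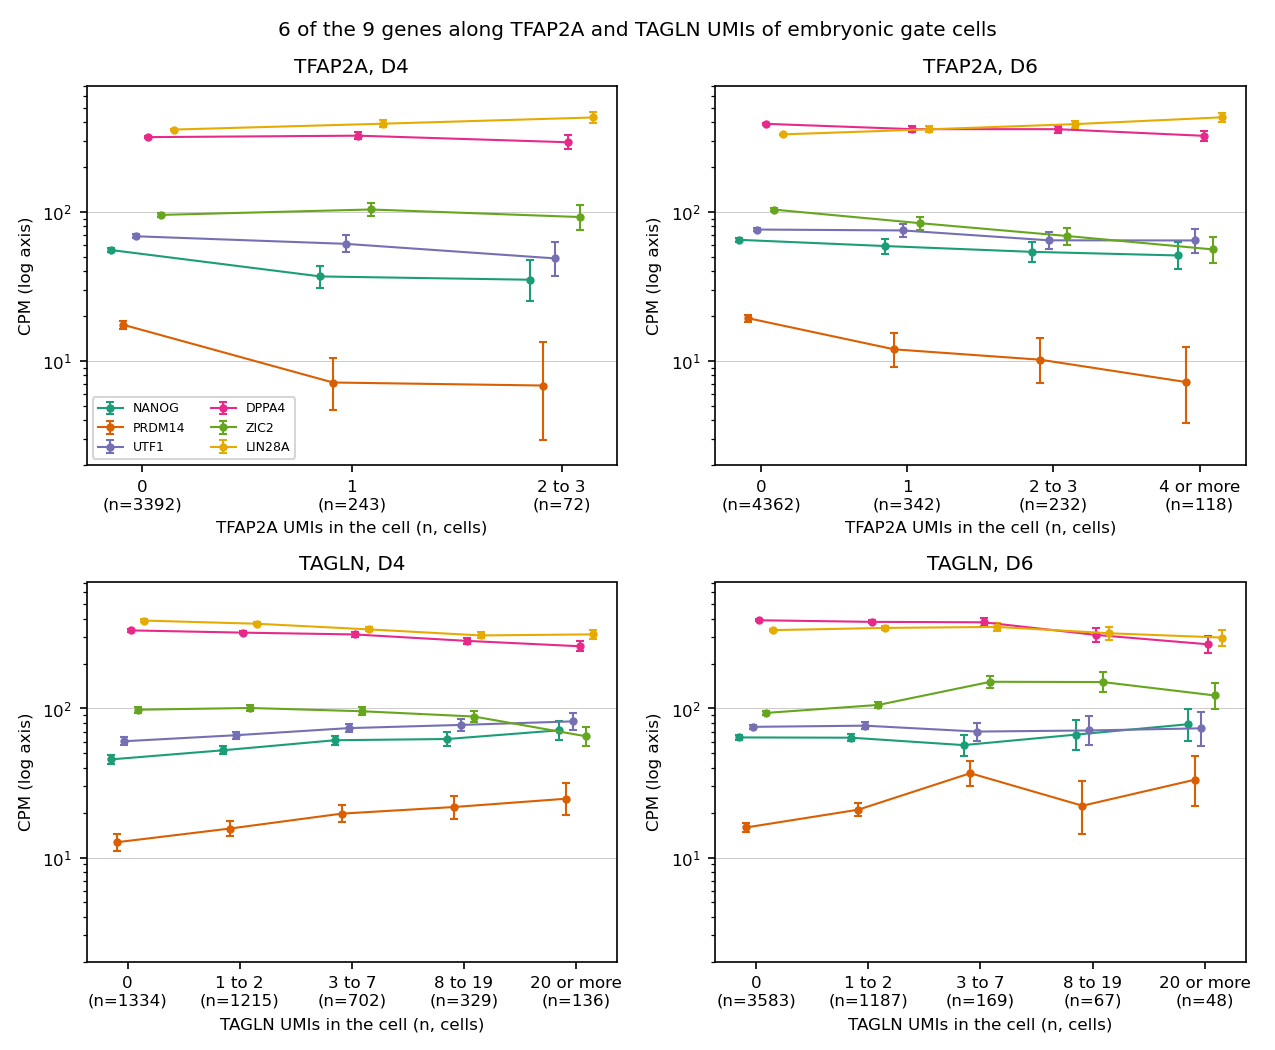
CPM (log y axis) of 6 of the 9 genes in embryonic gate cells, grouped by the cell's TFAP2A UMIs (top) or TAGLN UMIs (bottom) at D4 (left) and D6 (right), with 95% counting intervals; n is the number of cells, and the 9 cells with 4 or more TFAP2A UMIs at D4 are not drawn. PRDM14 goes from 19.4 to 7.22 along TFAP2A at D6 and from 12.7 to 24.8 along TAGLN at D4, while LIN28A goes from 332 to 431 along TFAP2A at D6.

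The order of the populations was thus not the same for each gene. For NANOG at D4 it ran from TAGLN cells through base and TFAP2A cells to the hypoblast gate, with no overlap of neighbouring intervals, and at D6 the intervals of TAGLN and base cells overlapped. For PRDM14 the order was the same on both days, and no neighbouring intervals overlapped. For LIN28A at D6, TFAP2A cells were highest and hypoblast cells lowest, and the intervals of TAGLN cells (311 [287, 336]) and base cells overlapped. For SALL4 at D4, hypoblast and TFAP2A cells (172 [150, 195]) overlapped, and the 4 populations lay between 145 and 179 CPM.

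**Figure D4:**
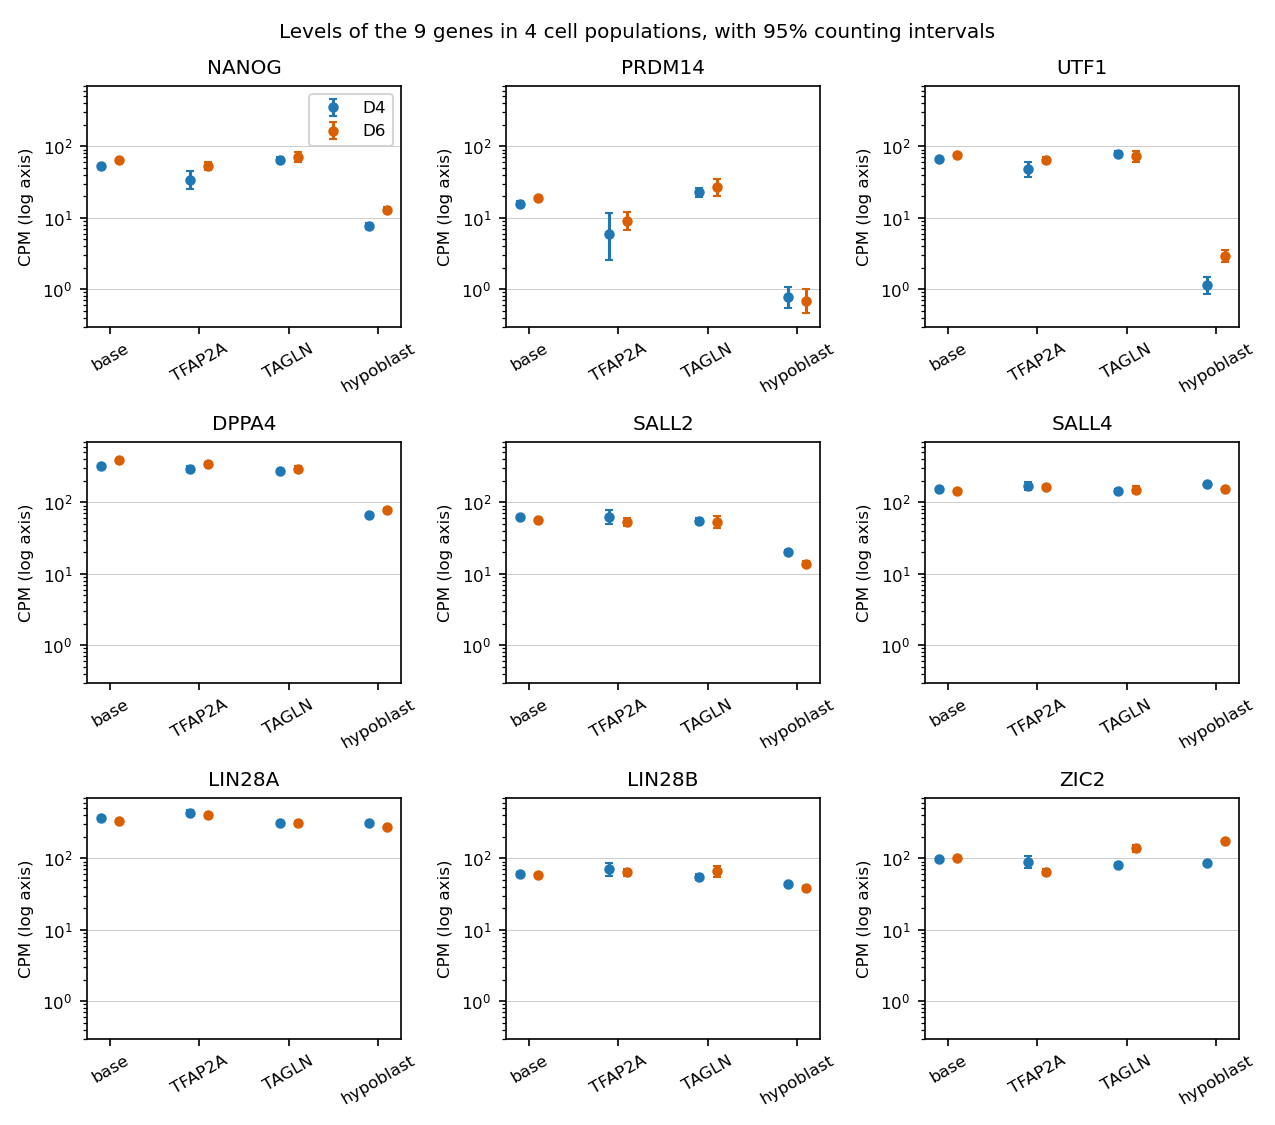
Level of each of the 9 genes (CPM, log y axis, 95% counting intervals) in base embryonic, TFAP2A, TAGLN and hypoblast gate cells (x axis) at D4 (blue) and D6 (orange). NANOG, PRDM14, UTF1, DPPA4 and SALL2 drop in the hypoblast gate, SALL4 and the LIN28 genes do not drop 2-fold, and ZIC2 in the hypoblast gate stands at 85.1 at D4 and 172 at D6.

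Few of the 9 transcripts were seen per cell after thinning, which discards most UMIs of a typical cell. These counts are therefore not the number of genes that a cell expresses. Without thinning, the share of embryonic gate cells with a UMI at D4 ran from 21.1% for PRDM14 to 97.7% for LIN28A. In the embryonic gate a thinned cell showed 2.78 ± 1.26 (SD over cells) of the 9 genes at D4 and 2.85 ± 1.28 at D6, against 1.74 ± 1.04 and 1.85 ± 1.09 in the hypoblast gate. At least 3 of the genes were seen in 57.1% [55.5, 58.7] of embryonic and 22.1% [20.8, 23.4] of hypoblast cells at D4, and in 60.2% [58.8, 61.6] and 26.2% [24.7, 27.7] at D6. TAGLN cells at D4 had 49.9% [45.3, 54.5]. Thinning brings any counts nearer to a Poisson spread, so closeness to it in thinned cells is not read as evenness among cells. The variance over mean of the thinned counts lay between 0.97 and 1.30 in both gates, and was highest for NANOG (1.30) and ZIC2 (1.20) in the hypoblast gate at D6. Pearson correlations between pairs of the 9 genes across base or hypoblast cells lay between -0.03 and 0.07, over 3172 to 4591 cells of 1 library each, and are too weak in such sparse counts to be read.

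**Figure D5:**
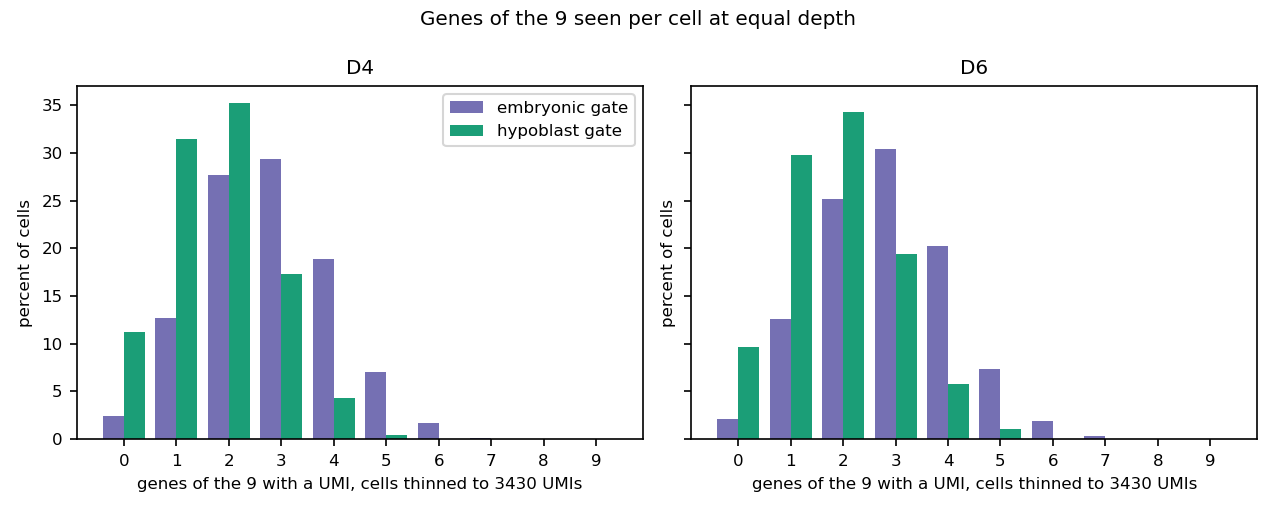
Percent of cells (y axis) by how many of the 9 genes had a UMI after thinning to the lowest UMI total of kept cells (x axis), for the embryonic (purple) and hypoblast gate (green) at D4 and D6. The embryonic distribution peaks at 3 genes (29.4% of cells at D4) and the hypoblast one at 2 (35.3%).

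A list of 26 further genes of primed or general pluripotency, the 7 embryonic markers among them, was read for comparison. At D4, 18 of the 26 were past 2-fold higher in the embryonic gate and 1 lower, beside 13.4% and 13.1% of all genes. At D6, 17 were higher and 1 lower, beside 18.1% and 13.3% of all genes. The list's median log2 ratios were 2.32 and 2.63, beside all-gene medians of 0.04 and 0.13. Highest at D4 were SFRP2, a WNT modulator (6.02), the non-coding ESRG (5.72) and FOXD3, a factor of pluripotent and neural crest cells (5.64). Among the lowest were PODXL (-1.04), a surface sialomucin, and SALL1 (-0.80). The SALL family thus lay on both sides, since SALL3 stood at 3.31, and ZIC5 stood at 1.91.

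In TFAP2A cells, SALL1 and SALL3 were higher, while SALL2 and SALL4 stayed within 1.5-fold. SALL1 was at 63.4 CPM against 28.7 in base cells at D4 and 52.8 against 32.8 at D6, and SALL3 at 59.7 against 26.1 and 51.6 against 27.3. These are log2 ratios of 1.14 and 0.69 for SALL1 and 1.19 and 0.92 for SALL3, beside -0.00 and -0.07 for SALL2. FOXD3 was lower on both days (-0.89 and -1.08). At D6, OTX2, a factor of the anterior epiblast (-1.33), THY1, the surface marker CD90 (-0.87), SFRP2 (-0.86) and CD24 (-0.60) were lower and FGF2 (0.62) and PODXL (0.63) higher. Of the list, 2 of 23 genes above the count minimum were past 1.5-fold higher and 1 lower at D4. At D6 4 of 25 were higher and 5 lower. Of all genes, 0.950% were past it higher and 2.49% lower at D4, and 2.24% and 2.46% at D6.

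In TAGLN cells at D4, SOX3, a relative of SOX2, was higher (0.98) and SFRP2 (-0.70) and SALL3 (-1.06) were lower. At D6 FGF2 was higher (1.17), and SFRP2 (-1.31), L1TD1 (-0.85) and THY1 (-0.60) were lower. SALL3 thus passed 1.5-fold on opposite sides in TFAP2A and TAGLN cells at D4. Between the days, THY1 was the 1 gene of the 26 past 1.5-fold in the embryonic gate, lower by a log2 ratio of -0.71. Of all genes there, 8.77% were past it higher and 2.70% lower. In the hypoblast gate PODXL (0.95), CD24 (0.83) and ZIC5 (0.63) were higher at D6 and THY1 (-1.47), SALL3 (-1.01) and ZSCAN10 (-0.70) lower, of 23 above the count minimum, beside 9.70% of all genes higher and 8.18% lower. ZIC5 and ZIC2 were thus both higher at D6 there.

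Of 12 genes listed for the LIN28 and let-7 pathway, 11 met the count minimum. On each day 2 were past 2-fold higher in the embryonic gate, MYC (3.36 at D4) and MYCN (1.24), with 1 lower at D4 and 2 at D6, shares near those of all genes (13.4% higher and 13.1% lower at D4, 18.1% and 13.3% at D6). HMGA1, an architectural chromatin protein, stood at 0.76 at D4. TUT4, the enzyme that adds uridines to let-7 precursors bound by LIN28A, was the gene lower at D4 (-1.26), followed by TUT7 (-0.43) and HMGA2 (-0.11). HMGA2, a let-7 target, was 53.4 CPM in the hypoblast gate at D4 and 100 at D6 (0.91). It was the 1 gene of this list past 1.5-fold between the days. Of all genes in that gate, 9.70% were past it higher and 8.18% lower. MYC was lower in TFAP2A cells (-0.95 and -0.61) and higher in TAGLN cells at D4 (0.60), the same signs as PRDM14. MYCN was lower in TAGLN cells at D6 (-0.68). The list's median was 0.27 at D4 and 0.37 at D6.

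Other genes, whether in these lists or not, were ranked by how close their profiles were to those of the 9 over 8 populations (4 per day). Likeness was the distance between centred log2(CPM + 1) values among 7572 candidate genes. Nearest to PRDM14 were MYC (distance 0.72) and AC007218.1, nearest to NANOG AC009055.2 (0.47) and OLFML3, and nearest to UTF1 the non-coding LNCPRESS1 (0.80) and LNCPRESS2. DPPA4 was followed by CRIP3 (0.36) and ZNF589, SALL2 by DUT (0.22) and CRMP1, and ZIC2 by C6orf132 (0.56) and PCCA-DT. The flat profiles of SALL4, LIN28A and LIN28B were nearest to MFAP1, RBM12B and DSTYK, at distances of 0.15 to 0.16, with HDLBP, ARID1A and RPS20 second.

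Cells that also carried TBXT, a primitive streak factor, or NANOS3, a germ cell gene, were few. Among 63 kept cells with at least 2 TBXT UMIs at D6, NANOG stood at 19.3 CPM [11.9, 29.4] and UTF1 at 2.75 [0.567, 8.04]. Of these cells 29 lay in the hypoblast gate and 11 in the embryonic gate, and FN1 stood at 536 CPM in them. Among 55 with a NANOS3 UMI at D6, of which 32 lay in the embryonic and 6 in the hypoblast gate, NANOG stood at 32.7 [21.7, 47.3] and PRDM14 at 7.01 [2.57, 15.3]. The genes counted include a copy of NANOG and a gene named as antisense to LIN28B. In kept cells the NANOG copy NANOGP8 had 28 and 43 UMIs beside 4088 and 6033 of NANOG, and LIN28B-AS1 had 60 and 95 beside 6454 and 7027 of LIN28B. These counts do not measure reads shared between the genes.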

How the data were processed

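Per the file headers, Cell Ranger 6.0.1 made the counts that the authors deposited, whole-number UMIs of 36601 genes for every called cell of the D4 and D6 libraries, on hg38 and not normalized. The submitters' processing notes also name Seurat 4.0.1 and R 4.0.3. The D4 library held 151712246 UMIs in 10943 cells and the D6 library 150320228 in 11483. The 7 bisulfite libraries were not analysed here.

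Cells with 3430 to 27500 UMIs and at most 10% mitochondrial UMIs were kept, 9151 at D4 and 10097 at D6. The 9 genes, the gates and the lists were chosen with earlier results of these data known. UMIs were summed over the cells of a population and divided by its total. Levels have exact Poisson, shares Clopper-Pearson and log2 ratios conditional binomial intervals (95%), and no p-value was computed, because cells are not replicates. Genes with an expected count of at least 20 in the smaller population were compared, and 2-fold between gates or 1.5-fold within a lineage stood in for a test. From each list the 3 highest and 3 lowest ratios between gates at D4 were named, with the genes past 1.5-fold in other comparisons and, for each of the 9 genes, the 2 nearest profiles. A gene that this rule names is not reported here. Doublets were called by Scrublet in scanpy 1.11.5 (353 and 432 cells). Python 3.11.15, numpy 2.4.6, pandas 2.3.3 and scipy 1.17.1 were used. Intervals were tested on simulated Poisson counts only, the spread that they assume, so the test does not show how they hold for these data. Alternatives changed the cell filter, doublets, gates, depth and scaling. Promoters came from RefSeq (GRCh38.p14), matched by symbol.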

Additional observations from a re-analysis of the deposited data

Results flagged for a closer look

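ZIC2 had opposite signs on the 2 days in a pair of comparisons, with counting intervals clear of 0 in each case, and this difference between the days was not tested. Embryonic over hypoblast gate, its log2 ratio was 0.17 at D4 and -0.79 at D6. In TAGLN cells over base embryonic cells, it was -0.29 at D4 and 0.45 at D6, and the D6 value was -0.06 under stricter gates. None of the other 8 genes had such a change of sign between the days, or between the gates in the ratio of D6 over D4.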

How the results depend on the processing

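The counts of genes past 2-fold between the gates were 5 of 9 on both days under each alternative, including hypoblast gate cells with a SOX17 UMI, an alternative chosen after seeing the data. From D4 to D6 the count was 0 in the embryonic gate under each alternative, and 3 or 4 in the hypoblast gate, taking both directions together. There SALL2 was added as lower under stricter gates (-0.60). In thinned cells NANOG fell short (0.57) and SALL2 entered as lower (-0.70), so fewer genes were then past 1.5-fold higher. In TFAP2A cells the count of 2 became 1 at D4 in thinned cells (PRDM14 at -0.22) and 1 as the mean over cells (NANOG at -0.58), and 1 at D6 when every called cell was used (ZIC2 at -0.56), and it became 3 at D4 with gates scaled to depth, with ZIC2 at -1.28 and PRDM14 counted as lower with no UMI. In TAGLN cells the count of 0 became 2 at D4 under stricter gates (PRDM14 at 0.72, ZIC2 at -0.64) and 1 in thinned cells, and 1 at D6 without Scrublet doublets, with gates scaled to depth or as the mean over cells, in each case PRDM14. The cause was not tested. No ratio past the fold changed sign. PRDM14 in TFAP2A cells at D4 had no value under the stricter and scaled gates, which left 7 and 15 cells and no UMI. With an expected count of at least 100, all genes past 1.5-fold in either direction went from 3.44% to 0.571% in TFAP2A cells at D4, where 4 of the 9 genes met it, from 4.70% to 2.26% at D6, from 6.98% to 2.98% and from 8.30% to 4.24% in TAGLN cells, and from 11.5% to 6.08% between the days in the embryonic gate. The 4 genes that met it in TFAP2A cells at D4 were SALL4, LIN28A, DPPA4 and ZIC2, none of them past 1.5-fold there. NANOG and PRDM14, the genes called lower at D4, did not meet it. No paired analysis was possible because each day is 1 library. Few UMIs limit PRDM14 in TFAP2A cells, and nothing here separates a day from its library.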

Other observations

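A minority of the NANOG UMIs in the hypoblast gate came from few cells with 2 or more. At D4 42 of 4061 cells had 2 or more NANOG UMIs, and at D6 85 of 3567, of which 11 had 4 or more. Cells with 2 or more held 96 of the gate's 369 NANOG UMIs at D4 and 215 of 541 at D6. Most thus came from cells with a single NANOG UMI. The cells with 2 or more were chosen by their NANOG counts, after the data had been seen, so NANOG itself is no finding in them. At D4 they held no UMI of UTF1 or PRDM14 (up to 6.79 CPM by the interval), and DPPA4 stood at 60.8 [41.8, 85.4] against 65.9 in hypoblast gate cells with no NANOG UMI. At D6 UTF1 stood at 5.26 [1.93, 11.4] against 2.92, PRDM14 at 2.63 [0.542, 7.69] against 0.627 and DPPA4 at 71.9 [57.2, 89.2] against 79.9, far below their embryonic levels. ZIC2 stood at 218 [192, 247] against 167 at D6, and at 120 [92.4, 153] against 84.1 at D4. POU5F1, which the gate holds at 5 UMIs or fewer, was higher at D4, at 129 [100, 163] against 74.4. At D6 POU5F1 stood at 50.8 [38.6, 65.7] against 39.1, a value inside that interval.

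In the 42 hypoblast gate cells of D6 with 2 or more HAND1 UMIs, a set also chosen after the data had been seen, LIN28B stood at 93.3 CPM [71.4, 120] and ZIC2 at 71.9 [52.8, 95.6], beside 38.7 and 172 in the whole gate, and LIN28A at 202 [169, 239] beside 273. At D4 the set held 11 cells, with LIN28B at 29.8 [8.12, 76.3] beside 43.3 and ZIC2 at 104 [57.0, 175] beside 85.1.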
